A study of Mus musculus with 12 samples.

Results

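FMRP, the RNA-binding protein lost in fragile X syndrome, is encoded by Fmr1 and belongs to a small group of genes that were followed here in CA1 pyramidal cells of mice with and without it. The group holds Fmr1, its autosomal paralogs Fxr1 and Fxr2, and the genes of the proteins named for binding FMRP, Cyfip1, Cyfip2, Nufip1 and Nufip2. The members were chosen by gene symbol, as the count table gives it, and were 7 of the 24079 genes in the table. All 7 passed the filter of at least 15 reads over the 12 libraries. Fmr1 itself was all but absent from the Fmr1-/y libraries, and none of the other 6 members passed the test between genotypes.

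FMRP and its paralogs FXR1P and FXR2P share their RNA-binding domains, form complexes with each other and sit on polyribosomes. FMRP is best known as a repressor of translation in dendrites and at synapses, where its loss leads to excess protein synthesis and immature spines. CYFIP1 links FMRP to the cap-binding protein eIF4E and so to the start of translation, and both CYFIP proteins are also subunits of the WAVE regulatory complex, which takes signals from Rac to Arp2/3-driven actin assembly in spines. NUFIP1 is a nuclear protein that helps to assemble box C/D small nucleolar ribonucleoproteins and moves between nucleus and synapse, and NUFIP2 is a cytoplasmic RNA-binding protein found with ribosomes and stress granules.

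The study asked which ribosome-bound mRNAs of CA1 pyramidal neurons differ when FMRP is lost. Each of the 12 libraries was made from ribosomes pulled down from the hippocampus through an HA tag on the ribosomal protein Rpl22 (RiboTag), and each pooled 4 to 6 mice. The libraries fell into 6 wild-type and 6 Fmr1-/y pools. Animals were male adults of 2 to 6 months described as C57BL/6J, and the wild-type mice were littermates. The paper's supplement names strains other than C57BL/6J for the RiboTag and Wfs1-CreERT2 lines that were crossed. Both genotypes carried the RiboTag allele and the tamoxifen-inducible Wfs1-CreERT2 transgene, and both received tamoxifen at 100 mg/kg for 3 days, 1 week before tissue was taken. The GEO labels spell the mutant Wfs1-CreERT2:RiboTag:Frm1 knockout. Fmr1 was missing in every cell of the mutant mice, while the tag was placed only in cells in which the Wfs1 driver was active. Wfs1, which encodes a protein of the endoplasmic reticulum, marks CA1 pyramidal cells in the hippocampus. The knockout came as a gift line from 1 laboratory. Since each library was a pool, p-values measure the spread between pools, not between animals.

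The wild-type libraries held 39400980 to 55745464 counted reads and the Fmr1-/y libraries 43106629 to 65565479, so every member but Nufip1 had at least 1971 reads in each wild-type library. Levels are given as CPM, the count of a gene scaled by TMM to a common library total, or as RPKM, the same value divided by merged exon length in kilobases, where genes are compared with each other. The edgeR quasi-likelihood test over 17823 genes called 4 genes at an adjusted p under 0.05, which is 0.0224% of genes tested, and 1418 genes at an unadjusted p under 0.05, which is 7.96%. The normalized levels of the genotypes did not overlap for 111 genes, or 0.623%. All 7 genes listed as CA1 pyramidal markers (Camk2a among them) were present, with a summed level of 8362 to 10380 CPM in wild-type against 8069 to 9595 CPM in Fmr1-/y. RNA of other cells was present too, with 5 choroid plexus genes summing to 6372 to 11857 CPM in wild-type against 8295 to 17479 CPM in Fmr1-/y. Ttr alone made up most of the choroid plexus sum, with a mean of 8323 (wild-type) against 11319 CPM (Fmr1-/y). Kl, the next highest of the 5, averaged 224 against 281 CPM. Camk2a likewise made up most of the CA1 sum, at 6207 against 5826 CPM. The sums thus mainly follow 1 transcript each and do not compare the amounts of RNA from the cell types. Fewer tagged cells and less RNA per cell cannot be told apart in such libraries.

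The paralogs are alike in sequence, so it matters whether a 50-base read can tell them apart. The most alike 50-base stretches of the coding sequences are shown for this reason, read from the GENCODE transcripts with the longest coding sequence (GRCm38), 5′ to 3′ on the coding strand, with capitals at the bases that differ. For Fmr1 and Fxr1 the stretch lay at coding bases 28 to 77 of both genes and spanned exons 1 and 2, at chrX:68678844-68688307 on the plus strand for Fmr1 and chr3:34020140-34039552 on the plus strand for Fxr1, the intron included.
Fmr1: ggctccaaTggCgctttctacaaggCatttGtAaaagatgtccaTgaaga
Fxr1: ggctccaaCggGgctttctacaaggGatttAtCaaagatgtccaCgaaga
For Fmr1 and Fxr2 it lay at coding bases 22 to 71 of Fmr1 (chrX:68678838-68688301, plus strand) and 52 to 101 of Fxr2 (chr11:69633369-69639409, plus strand), again across exons 1 and 2.
Fmr1: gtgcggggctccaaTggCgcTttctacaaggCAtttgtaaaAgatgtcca
Fxr2: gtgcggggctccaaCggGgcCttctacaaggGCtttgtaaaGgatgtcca
For Cyfip1 and Cyfip2 it lay at coding bases 241 to 290 of both genes, across exons 4 and 5, at chr7:55873479-55873661 on the plus strand and chr11:46284254-46286111 on the minus strand.
Cyfip1: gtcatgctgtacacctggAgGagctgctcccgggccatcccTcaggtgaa
Cyfip2: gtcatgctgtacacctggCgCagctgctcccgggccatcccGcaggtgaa

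Each FXR family pair differed at 6 or more bases in every ungapped 50-base stretch, in the coding sequence and in the whole transcript alike, and the longest identical run was 14 bases between Fmr1 and either paralog and 20 bases between Fxr1 and Fxr2. The alignment allowed at most 3 mismatches per read. A read copied without error from Fxr1 or Fxr2 thus could not be placed without a gap on Fmr1 in these transcripts within that allowance. Placements with a gap were not compared. Cyfip1 and Cyfip2 were closer. They differed at 3 bases in the printed stretch, and the longest identical run was 24 bases. Of the 6391 stretches of the Cyfip1 transcript, 15 (0.235%) came within 3 mismatches of Cyfip2. Without a gap, an error-free Cyfip1 read could thus match Cyfip2 within the allowance only in that small part of the transcript. Nufip1 and Nufip2 are named alike for their binding partner and not for shared sequence, and no stretch of the transcripts compared came closer than 8 mismatches. The transcript compared had 2318 bases for Nufip2, against a merged exon length of 5394, and 2459 bases for Fxr1, against 3439. Exon sequence outside the chosen transcripts was not compared.

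Fmr1 (Entrez 14265) lies on the X chromosome at chrX:68678536-68717963 (GRCm38, plus strand). The wild-type libraries 1 to 6 gave 48.5, 47.9, 50.04, 50.4, 51.3 and 49.2 CPM, from 1971 to 2608 reads. Among the Fmr1-/y libraries 5 had no read, and library 2 had 1 read (0.0198 CPM). The genotypes were thus fully separated, and Fmr1 was the least variable member in wild-type, with a coefficient of variation of 2.55% (49.6 ± 1.27 CPM, SD, n = 6). Pooled over libraries, 13181 wild-type reads stood against 1 Fmr1-/y read. This was a 15286-fold higher level in wild-type, with a 95% exact counting interval from 2743 to 603817, which covers counting error only and rests on the 1 read of library 2. The fitted edgeR log2 fold change, which depends on the prior count, was -13.05 with all libraries and -14.21 without Fmr1-/y library 2. Fmr1 ranked first of all genes by edgeR (adjusted p = 3.05e-18). It is the gene removed by design, so this serves as a check of the labels.

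The promoters of the 3 family genes are printed because they are the starting points of the transcript that vanished and of its paralogs. Each covers 250 bases before to 50 after the start, from RefSeq on GRCm38.p6, 5′ to 3′ along the gene, all on the plus strand: chrX:68678291-68678590 for Fmr1, chr3:34019829-34020128 for Fxr1 and chr11:69632721-69633020 for Fxr2. Capitals mark matches to the NRF1 motif GCGCANGCGC on either strand and to the E-box CACGTG, which reads the same on both strands.
Fmr1: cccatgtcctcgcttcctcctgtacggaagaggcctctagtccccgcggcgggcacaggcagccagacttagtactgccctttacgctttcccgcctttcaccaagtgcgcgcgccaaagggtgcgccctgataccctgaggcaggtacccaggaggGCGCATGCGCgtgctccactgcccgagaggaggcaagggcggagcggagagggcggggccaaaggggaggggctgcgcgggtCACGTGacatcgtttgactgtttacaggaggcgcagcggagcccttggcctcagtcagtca
Fxr1: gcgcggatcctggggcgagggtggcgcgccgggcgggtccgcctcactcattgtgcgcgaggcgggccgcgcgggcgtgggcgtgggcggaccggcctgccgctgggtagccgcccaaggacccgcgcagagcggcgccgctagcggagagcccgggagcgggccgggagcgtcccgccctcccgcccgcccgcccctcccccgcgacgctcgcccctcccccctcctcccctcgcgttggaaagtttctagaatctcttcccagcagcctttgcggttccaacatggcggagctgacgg
Fxr2: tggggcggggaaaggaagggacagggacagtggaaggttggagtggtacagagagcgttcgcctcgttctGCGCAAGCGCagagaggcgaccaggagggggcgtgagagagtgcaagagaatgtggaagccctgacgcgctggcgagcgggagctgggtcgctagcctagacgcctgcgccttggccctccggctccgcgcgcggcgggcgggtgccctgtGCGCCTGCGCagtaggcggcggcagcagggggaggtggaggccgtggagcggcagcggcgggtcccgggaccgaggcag
The Fmr1 window held 1 match to the NRF1 motif and 1 E-box, the Fxr2 window held 2 NRF1 matches and no E-box, and the Fxr1 window held neither. The windows of Cyfip2, Nufip1 and Nufip2 held neither motif, and Cyfip1 had no entry. Over 27025 promoters of the same length, 4.78% held the NRF1 motif and 7.24% held the E-box. These are matches of letters only.

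Fxr1 (Entrez 14359, chr3:34020058-34069980, plus strand) encodes FXR1P, the paralog with a known role in muscle as well as in neurons. Its level was 105, 117, 127, 127, 111 and 111 CPM in wild-type libraries 1 to 6 and 114, 112, 121, 131, 115 and 117 CPM in Fmr1-/y libraries 1 to 6. The ranges overlapped, with 3 wild-type libraries below every Fmr1-/y library and Fmr1-/y library 4 above every wild-type library. Means were 116 ± 9.20 and 118 ± 6.79 CPM, a log2 fold change of 0.03 (SE 0.06, 95% interval -0.11 to 0.16, edgeR adjusted p = 0.961). The interval placed the Fmr1-/y level between 92.9% and 111.6% of wild-type.

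Fxr2 (Entrez 23879, chr11:69632971-69653297, plus strand) encodes FXR2P, the paralog most abundant here. Wild-type libraries gave 200.4, 188, 195, 179, 188 and 196 CPM, and Fmr1-/y libraries gave 192, 203, 187, 176, 198 and 199 CPM. The lowest and the highest library were both Fmr1-/y. Means of 191 ± 7.52 and 192 ± 9.94 CPM gave a log2 fold change of 0.01 (SE 0.05, interval -0.10 to 0.12, edgeR adjusted p = 0.984), or 93.3% to 108.9% of wild-type. Neither paralog was detectably higher in the absence of Fmr1, and the upper bounds of the intervals were 111.6% for Fxr1 and 108.9% for Fxr2.

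Per length, Fxr2 made up most of the FXR family mRNA in the wild-type libraries, which also held RNA of other cells. Of the summed RPKM of the 3 genes, Fxr2 held 59.0% ± 2.21, Fxr1 30.8% ± 2.16 and Fmr1 10.1% ± 0.347 (SD, n = 6). Without Fmr1 the shares were 65.4% ± 2.45 for Fxr2 and 34.6% ± 2.45 for Fxr1. The family total was 109.6 ± 2.36 RPKM in wild-type and 99.6 ± 1.70 RPKM in Fmr1-/y, which is 90.9% of the wild-type mean, and this drop contains the Fmr1 share removed by design. The sum of Fxr1 and Fxr2 alone was 98.5 ± 2.39 RPKM in wild-type and 99.6 ± 1.69 RPKM in Fmr1-/y. The difference of 1.12 RPKM had a 95% interval of -1.50 to 3.62 (two-sided exact permutation test over 924 assignments of libraries, p = 0.353, adjusted p = 0.896 over 4 such tests). It was 2.01 RPKM without wild-type library 3, 0.572 RPKM without wild-type library 5, 0.742 RPKM without Fmr1-/y library 6 and 2.72 RPKM with no scaling factor. The ratio of Fxr2 to Fxr1 ran from 1.65 to 2.23 in wild-type (mean 1.93 ± 0.206) and from 1.57 to 2.12 in Fmr1-/y (1.90 ± 0.194), a log2 difference of -0.02 (interval -0.21 to 0.18, exact permutation p = 0.846, adjusted p = 0.896).

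Cyfip1 and Cyfip2 encode proteins of equal length, 1253 residues by their coding sequences, and were present at very different levels. Cyfip1 (Entrez 20430, chr7:55842022-55932633, plus strand) gave 97.3, 99.2, 95.7, 96.5, 83.5 and 91.9 CPM in wild-type libraries and 92.6, 92.8, 98.1, 83.0, 81.3 and 90.6 CPM in Fmr1-/y libraries. A single wild-type library and a pair of Fmr1-/y libraries lay under 85 CPM. Means of 94.0 ± 5.69 and 89.7 ± 6.43 CPM gave a log2 fold change of -0.07 (SE 0.06, interval -0.20 to 0.07, edgeR adjusted p = 0.863). The interval ran from 87.0% to 104.6% of wild-type.

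Cyfip2 (Entrez 76884, chr11:46193849-46312859, minus strand) was the most abundant member by far. Wild-type libraries 1 to 6 gave 939, 845, 841, 713, 904 and 825 CPM and Fmr1-/y libraries gave 745, 799, 741, 716, 823 and 833 CPM. The lowest library of all was wild-type, and 4 wild-type libraries lay above every Fmr1-/y library. The means of 844 ± 77.6 and 776 ± 48.4 CPM differed by a log2 fold change of -0.12 (SE 0.07, interval -0.26 to 0.02, unadjusted p = 0.0874, edgeR adjusted p = 0.705), or 83.3% to 101.4% of wild-type. This was the largest difference among the 6 members other than Fmr1, and it did not pass the test.

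No difference in the balance of the CYFIP genes was detected beyond the spread between libraries. The Cyfip2 to Cyfip1 ratio per length was 6.98 to 10.2 in wild-type (8.53 ± 1.09) and 7.13 to 9.57 in Fmr1-/y (8.21 ± 0.850). The log2 difference was -0.05 (interval -0.26 to 0.17, exact permutation p = 0.602, adjusted p = 0.896).

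**Figure D1:**
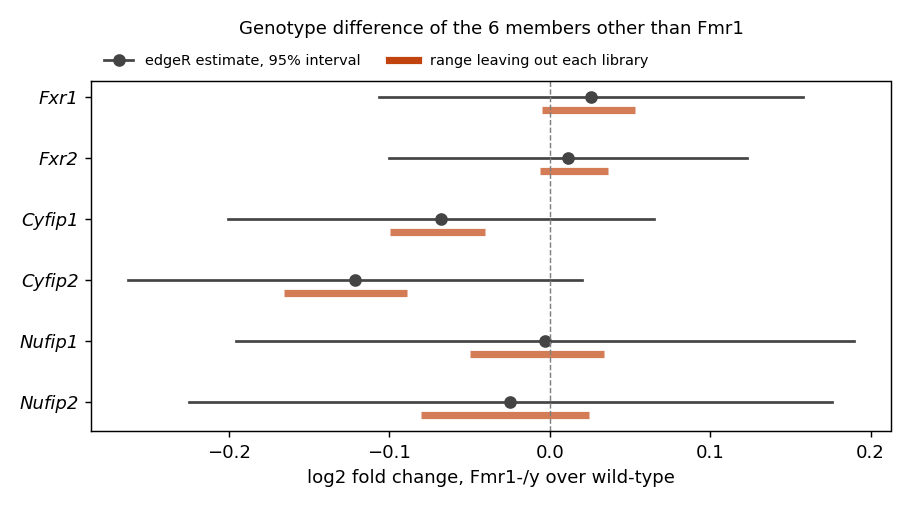
Log2 fold change of Fmr1-/y over wild-type (horizontal axis) for the 6 members other than Fmr1, with the edgeR estimate and its 95% interval in grey and, in orange, the range of estimates when each of the 12 libraries was left out. All 6 intervals include 0, and the estimates of Cyfip1 and Cyfip2 stay below 0 whichever library is left out.

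Nufip1 (Entrez 27275, chr14:76110891-76137379, plus strand) was the least abundant member, from 529 to 1033 reads per library. It gave 16.0, 16.6, 14.5, 13.0, 16.1 and 17.6 CPM in wild-type and 15.5, 17.6, 13.6, 14.6, 15.8 and 16.6 CPM in Fmr1-/y. The genotype means were 15.6 ± 1.63 and 15.6 ± 1.43 CPM (log2 fold change -0.003, SE 0.09), and the interval reached from 87.3% to 114.1% of wild-type (edgeR adjusted p = 0.999).

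Nufip2 (Entrez 68564, chr11:77685764-77717966, plus strand) varied most between libraries, with a coefficient of variation of 13.0% in wild-type. Its values were 55.1, 73.2, 79.9, 70.2, 71.6 and 61.1 CPM in wild-type and 60.8, 61.7, 75.3, 77.2, 57.4 and 71.9 CPM in Fmr1-/y. Both the lowest and the highest library were wild-type. Means of 68.5 ± 8.90 and 67.4 ± 8.40 CPM gave a log2 fold change of -0.02 (SE 0.10, interval -0.23 to 0.18, edgeR adjusted p = 0.979). The Nufip2 to Nufip1 ratio per length was 3.27 ± 0.654 in wild-type and 3.22 ± 0.638 in Fmr1-/y (log2 difference -0.02, interval -0.40 to 0.33, exact permutation p = 0.896, also after adjustment). The exact test could reach a p of 0.00216 with these libraries.

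**Figure D2:**
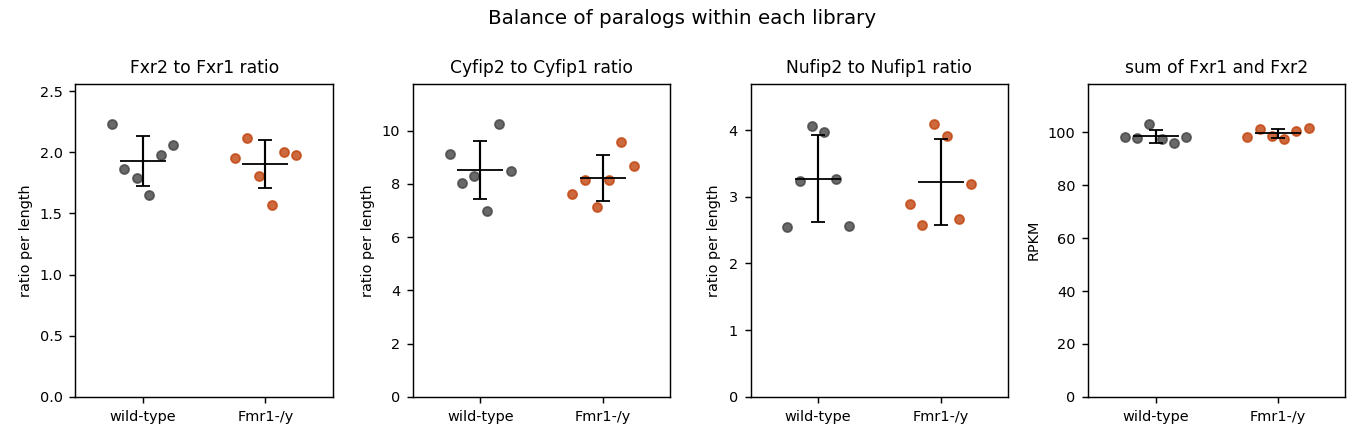
Ratio of paralogs per length within each library (first 3 panels) and summed RPKM of Fxr1 and Fxr2 (last panel), by genotype, with mean and SD as black bars (n = 6 each; vertical axes start at 0). The genotypes overlap in all panels, with the Cyfip2 to Cyfip1 ratio between 6.98 and 10.2 and the Fxr2 to Fxr1 ratio between 1.57 and 2.23.

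Of the 7 members, 1 was called, and it is the gene removed by design. No other member had an unadjusted p under 0.05, against 7.96% of all genes tested, although Cyfip2 did without wild-type library 4 (edgeR unadjusted p = 0.0141, adjusted p = 0.435). None of the 6 had genotypes that did not overlap, against 0.623% of genes. Rpl22, the tagged gene itself, was at 100.1 ± 4.57 CPM in wild-type against 104 ± 8.78 CPM in Fmr1-/y (log2 fold change 0.06, edgeR adjusted p = 0.899).

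Ordered by level per length in wild-type, Cyfip2 stood highest at 120.1 ± 11.05 RPKM and at percentile 97.5 of genes with a length. Fxr2 followed at 64.7 ± 2.55 RPKM (percentile 94.1) and Fxr1 at 33.8 ± 2.68 RPKM (percentile 88.1), and the libraries of these 3 genes did not overlap. Cyfip1 at 14.2 ± 0.856 RPKM, Nufip2 at 12.7 ± 1.65 RPKM and Fmr1 at 11.1 ± 0.284 RPKM came next. Neighbours in this middle group overlapped between libraries, since Nufip2 ran from 10.2 to 14.8 RPKM, across the whole Fmr1 range of 10.7 to 11.5 RPKM and most of the Cyfip1 range of 12.6 to 14.9 RPKM. Nufip1 was lowest at 3.94 ± 0.411 RPKM (percentile 46.4), below every library of the others. In the Fmr1-/y libraries the order of the 6 remaining genes was the same, with Cyfip2 at 110.4 ± 6.89 RPKM, Fxr2 at 65.2 ± 3.37 RPKM, Fxr1 at 34.4 ± 1.97 RPKM, Cyfip1 at 13.5 ± 0.968 RPKM, Nufip2 at 12.5 ± 1.56 RPKM and Nufip1 at 3.93 ± 0.359 RPKM. These levels rest on one merged length per gene, and the isoforms in use were not measured.

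Some members varied together, and others in opposite directions, between libraries of one genotype. After each gene was centred on its genotype mean in log2 CPM, Fxr1 and Fxr2 ran in opposite directions over the 12 libraries (Pearson r = -0.72, Spearman rho = -0.71, permutation p = 0.0082 and 0.0117, adjusted p = 0.0255 and 0.0584 over 15 pairs). The r was -0.82 without the 2 libraries farthest from the median of Fxr1, -0.59 within wild-type and -0.93 within Fmr1-/y. Fxr1 ran with Nufip2 (r = 0.79, rho = 0.80, permutation p = 0.0024 and 0.0026, adjusted p = 0.0255 and 0.0394), with r = 0.68 without the 2 farthest libraries, 0.80 within wild-type and 0.81 within Fmr1-/y. Fxr2 ran with Cyfip2 (r = 0.76, rho = 0.74, permutation p = 0.0041 and 0.0076, adjusted p = 0.0255 and 0.0570), with r = 0.53 without the 2 farthest libraries.

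Of the 15 pairs, 7 had an adjusted permutation p under 0.05 by r and 1, Fxr1 with Nufip2, by rho. The share of other gene pairs that would pass was not determined, so the count does not set these members apart. The permutations shuffled the centred values over all 12 libraries and made no allowance for the genotype means taken out. The p-values are thus somewhat too small, and the count of 7 may be too high. The others by r were Fxr1 with Cyfip2 (r = -0.72) and with Nufip1 (r = -0.72), Fxr2 with Nufip1 (r = 0.67) and Cyfip2 with Nufip1 (r = 0.66). Cyfip1 stood apart, with r between -0.22 and 0.16 to each of the other 5. All points share their library, its depth and its normalization, and each library is a different pool of mice. The number of counted reads moved with some members (r = 0.62 for Fxr2, 0.56 for Cyfip2 and -0.62 for Nufip2), and after depth was taken out r was -0.67 for Fxr1 with Fxr2, 0.77 for Fxr1 with Nufip2 and 0.63 for Fxr2 with Cyfip2. The part of other library traits was not tested.

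**Figure D3:**
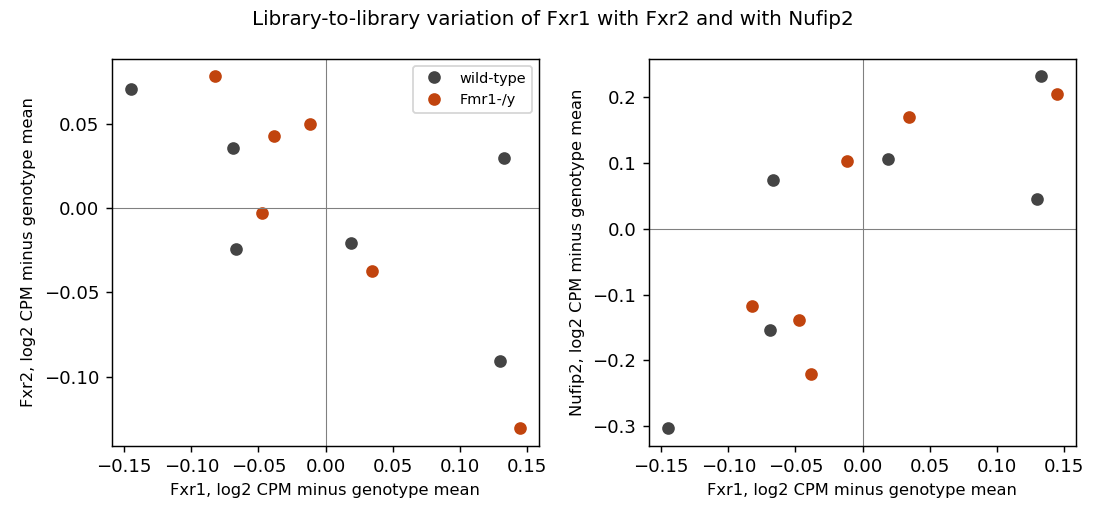
Library-to-library variation of Fxr1 (horizontal axes, log2 CPM minus genotype mean) against Fxr2 (left) and Nufip2 (right) on the same scale of log2 CPM minus genotype mean, 1 point per library, wild-type in grey and Fmr1-/y in orange. Libraries with more Fxr1 had less Fxr2 (r = -0.72, n = 12) and more Nufip2 (r = 0.79, n = 12) in both genotypes.

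The genes whose centred levels followed each member most closely were sought among 12788 genes, and by this choice their r is high. For Fxr1 they were Fam63b (r = 0.96, rho = 0.94) and Osbpl8 (r = 0.96, rho = 0.99), and for Fxr2 they were Sepw1 (r = 0.96, rho = 0.92) and Anapc11 (r = 0.96, rho = 0.90), each over 12 libraries. Cyfip1 was followed by Leprotl1 (r = 0.92) and Gm13375 (r = 0.90), and Cyfip2 by Nuak1 and Pacs1 (both r = 0.94). Nufip1 was followed by Gprin1 (r = 0.95) and Ap2a2 (r = 0.94). Nufip2 was followed by Snx30 (r = 0.995) and Dcp2 (r = 0.98). For Fmr1 only the 6 wild-type libraries could be used, and C030034I22Rik (r = 0.99) and 1700019L03Rik (r = 0.97) came out highest.

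The proteins of these genes work with many others, and 8 lists of such genes, holding 80 genes in the table, were followed beside them. Of the 79 tested, none passed the edgeR test at an adjusted p under 0.05, and the same count of 0 came from DESeq2 and limma voom. At an unadjusted p under 0.05 there were 2 genes, both lower in Fmr1-/y, or 2.53% against 7.96% of all genes. The median log2 fold change over the lists was -0.02, against 0.004 for all genes tested.

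The 11 partners of CYFIP in the WAVE complex and its Rac activators had 3 genes with higher and 8 with lower fitted levels in Fmr1-/y and a median log2 fold change of -0.06. Nckap1, which encodes the large subunit that pairs with CYFIP in the complex, gave 636, 534, 526, 514, 540.3 and 546 CPM in wild-type libraries 1 to 6 and 486, 507, 460.4, 434, 475 and 503 CPM in Fmr1-/y libraries. Every Fmr1-/y library lay below every wild-type library, the single such case among the 79 genes (0.623% of all genes tested did so), with 514 against 507 CPM at the nearest. Means of 549.6 ± 44.0 and 478 ± 27.6 CPM gave a log2 fold change of -0.20 (SE 0.06, unadjusted p = 0.0044, edgeR adjusted p = 0.361), and adjusted p ran from 0.140 to 0.649 over 22 alternative fits. Wasf3, a WAVE protein, was at 30.3 ± 3.41 CPM in wild-type against 26.5 ± 3.14 CPM in Fmr1-/y (log2 fold change -0.20, edgeR adjusted p = 0.630). Per length, Nckap1 (119 RPKM), Wasf1 (138 RPKM) and Brk1 (106 RPKM) stood near Cyfip2 (120.1 RPKM) in wild-type, while Abi1 (45.1 RPKM), Abi2 (28.2 RPKM), Wasf3 (5.84 RPKM) and Wasf2 (3.84 RPKM) stood lower. Wasf1, the neuronal WAVE protein, was at 394 ± 18.1 CPM in wild-type against 377 ± 39.2 CPM in Fmr1-/y.

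Cyfip2 and Nckap1 had lower fitted values, as did all listed CA1 pyramidal markers and most listed oligodendrocyte and interneuron markers. All 7 CA1 pyramidal markers had lower fitted levels in Fmr1-/y (log2 fold change -0.27 to -0.01, median -0.11). Of these, 2 had an unadjusted edgeR p under 0.05, against 7.96% of all genes tested. Wfs1 itself was at 1272 ± 175 CPM in wild-type against 1054 ± 103 CPM in Fmr1-/y (log2 fold change -0.27, edgeR adjusted p = 0.410). All 6 astrocyte markers had higher fitted levels (median 0.25, 4 with unadjusted p under 0.05, summed level 1106 to 1485 CPM in wild-type against 1264 to 2046 CPM in Fmr1-/y). The same held for 5 of 5 endothelial markers (median 0.37, 3 with unadjusted p under 0.05, 36.1 to 50.01 CPM and 43.3 to 65.8 CPM). It also held for 5 of 5 choroid plexus markers (median 0.36, 2 with unadjusted p under 0.05). Of 6 oligodendrocyte markers 5 had lower fitted levels (median -0.16, 1085 to 1629 CPM and 978 to 1491 CPM). Medians were -0.10 for 8 interneuron markers (6 with lower fitted levels), 0.01 for 6 microglia and 0.02 for 7 CA2, CA3 and dentate markers. Over all genes tested the median was 0.004. No marker list held a gene past the adjusted threshold, and the part of cell composition in the values of Cyfip2 and Nckap1 was not tested.

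The Arp2/3 complex, which the WAVE complex switches on, had 4 of 10 genes with higher and 6 with lower fitted levels (median -0.03). Arpc1b had the smallest p, with 13.1 ± 1.24 CPM in wild-type against 15.2 ± 2.16 CPM in Fmr1-/y (log2 fold change 0.21, edgeR adjusted p = 0.633). Arpc5 had a log2 fold change of -0.11 (adjusted p = 0.818), and Actr2, the highest of the list in CPM, was at 967 ± 81.5 and 901 ± 111 CPM.

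Among 11 cap-binding and 4E-BP genes, which include that of eIF4E, to which CYFIP1 links FMRP, 3 had higher and 8 lower fitted levels (median -0.02). Eif4a2, the highest in CPM, had a log2 fold change of -0.07 (edgeR adjusted p = 0.882) and Eif4e3 one of -0.08 (adjusted p = 0.900). Eif4e, the cap-binding protein itself, was at 108 ± 4.39 CPM in wild-type against 106 ± 6.11 CPM in Fmr1-/y.

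The 22 partners of FMRP in ribonucleoproteins and granules had 10 genes with higher and 12 with lower fitted levels (median -0.01). Top3b, a topoisomerase that acts on RNA and binds FMRP through Tdrd3, was at 33.9 ± 1.96 and 37.3 ± 2.63 CPM (log2 fold change 0.14, edgeR adjusted p = 0.650). Pura, a protein of transport granules, had a log2 fold change of -0.16 (adjusted p = 0.798) at about 5 CPM, and Hnrnpa2b1, the highest of the list in CPM, had one of 0.02.

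The 7 genes of kinases, phosphatase subunits and a ubiquitin ligase adaptor that act on FMRP had a median log2 fold change of 0.002. Rps6kb1, a kinase of FMRP, had a log2 fold change of -0.13 (edgeR adjusted p = 0.773), Csnk2a1, a subunit of casein kinase 2, one of 0.07 (adjusted p = 0.832), and Ppp2ca, the highest of the list in mean CPM, was at 240.4 ± 22.1 and 239.9 ± 13.5 CPM. The 10 genes of box C/D assembly around NUFIP1 were split 5 to 5, with log2 fold changes of -0.10 for Ruvbl1, 0.12 for Ruvbl2 and 0.04 for Nhp2l1, the highest of the list in CPM averaged over all libraries.

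The chromosomal neighbours of Cyfip1, which are lost together with it in the human 15q11.2 deletion, had log2 fold changes of 0.04 for Nipa1, -0.03 for Nipa2 and -0.08 for Tubgcp5 (edgeR adjusted p between 0.919 and 0.953). Nipa2 overlaps the 3′ end of Cyfip1 on the opposite strand, and counting used strand.

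Of the 6 listed genes in the region of Fmr1 on the X chromosome, 5 were tested, 1 with a higher and 4 with a lower fitted level in Fmr1-/y (median log2 fold change -0.13). The higher gene, Sox3, had very few reads (0.242 CPM in wild-type against 0.272 CPM in Fmr1-/y, SE of the log2 fold change 0.51). Aff2, a lower one, was also low (2.30 against 2.04 CPM, SE 0.31), so the signs of both are uncertain. Slitrk4, which encodes a synaptic adhesion protein and lies 4.40 Mb from Fmr1 at chrX:64264883-64277345, gave 13.7, 15.5, 14.8, 17.3, 14.95 and 12.9 CPM in wild-type and 12.5, 10.36, 11.5, 11.7, 12.2 and 13.0 CPM in Fmr1-/y. The genotypes met at 1 library each, wild-type 6 and Fmr1-/y 6. Means of 14.9 ± 1.52 and 11.9 ± 0.912 CPM gave a log2 fold change of -0.33 (SE 0.09, unadjusted p = 0.0021, edgeR adjusted p = 0.301), with adjusted p from 0.0559 to 0.611 over 22 alternative fits. Ids, a lysosomal enzyme 1.63 Mb away, had a log2 fold change of -0.13 (adjusted p = 0.909), and Slitrk2, which is 2.02 Mb away and was at 18.0 ± 1.997 and 17.6 ± 1.58 CPM, one of -0.04.

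**Figure D4:**
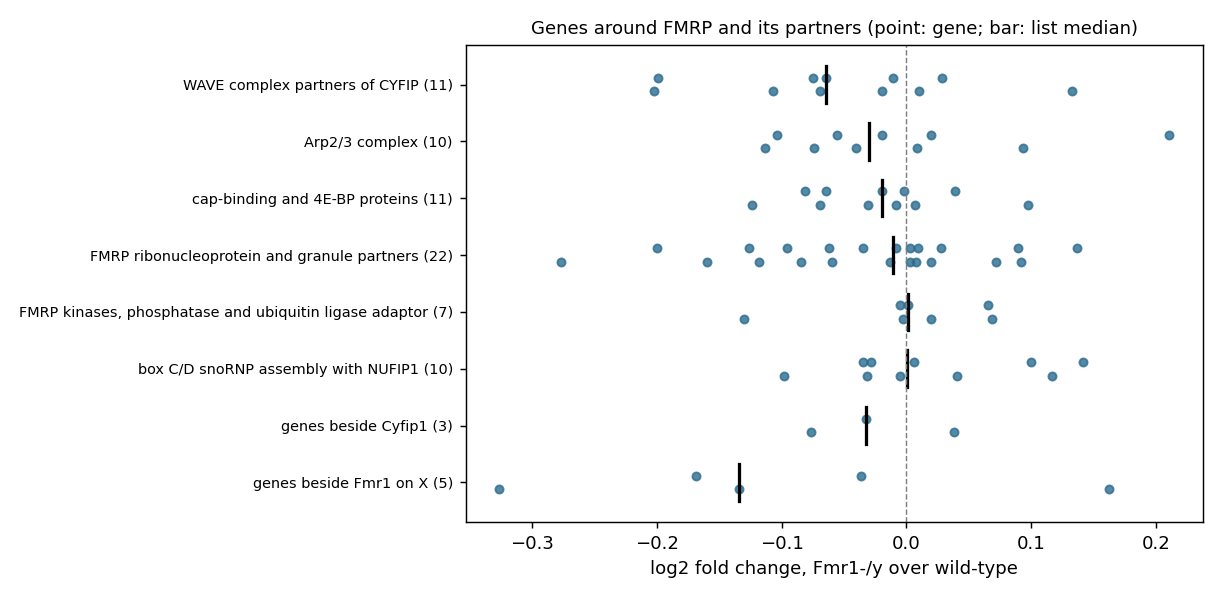
Log2 fold change of Fmr1-/y over wild-type (horizontal axis) for the 79 tested genes of the 8 lists, 1 point per gene, with the list median as a black bar and the number of genes in parentheses. All points lie between -0.33 and 0.21 and none passed the adjusted threshold, and the list medians lie between -0.13 and 0.002.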

How the data were processed

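Ribosome-bound RNA from hippocampus was sequenced as stranded single-end 50-base reads. The deposited values are raw read counts per gene: per the labels and methods the authors used bcl2fastq 2.17, TopHat2 2.1.1 with Bowtie2 2.2.8 on mm10, discarded reads with over 3 mismatches, and counted on the opposite strand with HTSeq 0.6.1p1. How reads with several placements were treated is not given in the sources used here. Counts were tested with edgeR 4.0.16 (R 4.3.3), with TMM scaling, glmQLFit and glmQLFTest on genotype alone, Benjamini-Hochberg adjustment and a threshold of 0.05, for 17823 genes with at least 15 reads in total. DESeq2 1.42.0, which the authors used for their own test, and limma voom 3.58.1 were alternatives. The edgeR, DESeq2 and voom steps were also run on counts simulated from the edgeR fit. The outcome is not given here and lends no support to the calls. CPM were normalized by TMM, and RPKM used merged exon lengths of GENCODE vM21 basic transcripts, known for 16613 tested genes (93.2%). Gene coordinates are from RefSeq (GRCm38.p6). Ratios and the sum of Fxr1 and Fxr2 were tested by exact permutation of the libraries, with intervals by inversion of that test. Correlation p-values came from 100000 permutations of the centred values over all 12 libraries, with no allowance for the genotype means taken out.

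The 7 members and all gene lists were chosen with earlier results of these data known. Genes named in the text are the members with every library's value, of each list the genes past the threshold, the 2 with the smallest p and the 1 with the highest mean, the 2 genes most like each member among those with mean log2 CPM over 1 (for Fmr1, over the wild-type libraries), and Rpl22. Eif4e, Wasf1, Wasf2, Abi1, Abi2, Brk1, Slitrk2, Sox3, Aff2, Wfs1, Camk2a, Ttr and Kl were named after their values were seen.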

Additional observations from a re-analysis of the deposited data

Results flagged for a closer look

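For 2 values the gap of a single library to the others of its genotype passed the limit. Fmr1-/y library 2 had 1 Fmr1 read (0.0198 CPM) where the other 5 had 0, so its gap to the rest was the whole range of the group (ratio 1.0), as any group with a single read must show. Wild-type library 3 had the highest summed level of Fxr1 and Fxr2, 102.9 RPKM against 95.7 to 98.4 RPKM in the other 5, with a gap of 0.632 of the range. In all, 22 groups of 6 libraries were searched for such a gap, and about 1.1 would be found by chance.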

How the results depend on the processing

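Fmr1 was called in every fit that tested it, and no other member and no listed gene passed the threshold in any alternative. Requiring at least 10 reads in every library removed Fmr1 by construction, leaving 0 members and 1 gene past the threshold. Of all genes, 4 passed by edgeR, 84 by DESeq2, 82 by DESeq2 with the fold change prior and 2 at a threshold of 0.01, and 2 to 6 passed when a library was left out, with 2 without wild-type 4, 5 or 6 or Fmr1-/y 1, 4, 5 or 6. The cause was not tested. Leaving out a library moved the log2 fold change from -0.0047 to 0.053 for Fxr1, -0.0062 to 0.036 for Fxr2, -0.050 to 0.034 for Nufip1 and -0.080 to 0.024 for Nufip2, so their signs were not stable. For Nufip1 the value was 0.022 with no scaling factor and 0.0029 with limma voom. With a library left out, the log2 ratio differences ran from -0.061 to 0.038 for Fxr2 to Fxr1. They ran from -0.11 to 0.0039 for Cyfip2 to Cyfip1 and from -0.095 to 0.045 for Nufip2 to Nufip1. The difference in the sum of Fxr1 and Fxr2 ran from 0.572 to 2.01 RPKM with a library left out. With no scaling factor it was 2.72 RPKM. Cyfip1 and Cyfip2 stayed below 0 in all 22 alternatives, Cyfip2 from -0.17 to -0.09 with adjusted p of 0.435 or more and an unadjusted p of 0.0141 without wild-type 4.

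Nothing in the labels ties same-numbered libraries to each other beyond the number. Their deviations correlated with r from -0.08 to 0.09 over all genes tested and from -0.44 to 0.60 over genes with mean log2 CPM over 5. With the replicate block, edgeR again called 4 genes, 1 of them a member, and Cyfip2 had a log2 fold change of -0.12 (adjusted p = 0.617). Nufip1 had the fewest reads of the 6 members other than Fmr1, 529 in the lowest library.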
